A study of Mus musculus with 6 samples.

Results

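The genes described here are 35 immediate early genes and feedback genes of the ERK pathway, chosen by name from the 43346 rows of a deposited expression table. All 35 names were found, each in 1 row. They were measured by RNA sequencing in MC3T3-E1, an established osteoblastic line derived from mouse calvaria. The control group is the MC3T3 control line. The other group is a line labelled Rorβ-CRISPR (KO), a label that names Rorb, the gene of the nuclear receptor ROR beta, and its samples are called the labelled libraries below. Each group has 3 libraries, and both lines were grown to confluence and then kept for 2 days in osteoblastic medium, with no other agent named. The labels do not say what the control line carries, whether the other line is 1 clone, or whether replicates are separate cultures. The p-values therefore measure the spread between these libraries, which may be technical. In bulk RNA, fewer cells that express a gene cannot be told apart from less RNA per cell.

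Immediate early genes are switched on soon after a growth factor or stress signal, without new protein synthesis. Many encode transcription factors, such as the FOS and JUN proteins of the AP-1 complex, the EGR zinc finger proteins and some Krüppel-like factors (KLF). A common route is the kinase cascade from RAS and RAF to ERK, which acts on the factors that bind their promoters. The same cascade induces its own brakes. These include dual-specificity phosphatases that inactivate MAP kinases (DUSP), and the Sprouty and Spred proteins, which act near RAS and RAF. ETV1, ETV4 and ETV5 are transcription factors of the PEA3 group whose transcripts often follow receptor tyrosine kinase signalling. AP-1 proteins are also known regulators of bone formation.

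Values are read counts scaled to library size (CPM) by the authors with trimmed-mean (TMM) factors, and errors are SDs over 3 libraries unless named as SE. Reads in genes ranged from 34662707 to 42603315 per library. Rorb, checked first, had 1, 3 and 0 reads in control and 69, 78 and 111 in the labelled libraries, so its transcript was higher where the label names a knockout. Directions below are between libraries as labelled. All 12 osteoblast markers were detected, among them Runx2 (224 ± 6.57 in control), Sp7 (98.96 ± 1.19) and Alpl (10.8 ± 0.387). By the test described below, Runx2, Sp7, Alpl, Ibsp and Phospho1 were higher in the labelled libraries. Col1a1, Col1a2, Bglap, Bglap2, Spp1 and Sparc were lower, and Dlx5 was not called. Of all tested rows 66.2% were called. Among the markers of other cell types, 10 had 0 reads in all 6 libraries: Emr1, Cdh5, Kdr, Emcn, Plin1, Myod1, Myog, Acan, Snap25 and Rbfox3. Summed macrophage markers were at 20.3 to 23.4 in control and 14.2 to 15.2 in the labelled libraries, and summed endothelial markers at 0.173 to 0.4599 in control and 0.135 to 0.434. Lyz2 of the macrophage list went from 14.9 ± 1.57 to 7.64 ± 0.636, while Csf1r stood at 6.59 ± 0.102 and 6.38 ± 0.595 with overlapping groups. Some markers of the other lists were expressed and differed. Col2a1 of the chondrocyte list went from 283 ± 11.5 to 186 ± 7.89 and Sox9 from 52.7 ± 0.9987 to 45.6 ± 0.8295. Comp of the same list went the other way at low values, from 0.726 ± 0.249 to 1.14 ± 0.184, with overlapping groups. Of the neuron list Map2 went from 40.4 ± 3.47 to 18.8 ± 0.201 and Tubb3 from 6.12 ± 0.677 to 32.3 ± 3.29, and Des of the muscle list from 6.49 ± 0.427 to 1.75 ± 0.265. Summed chondrocyte markers were at 322 to 344 in control and 225 to 239, neuron markers at 44.03 to 50.2 in control and 48.3 to 54.8 and muscle markers at 6.41 to 7.09 in control and 1.76 to 2.11. The part of these markers in the results was not tested. Rows that collect ribosomal RNA reads held 16.9% to 25.4% of reads in control and 13.1% to 15.2% in the labelled libraries. With TMM factors computed without those rows, the same 7 of the 35 genes were higher and the same 21 lower.

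Most of the 35 genes differed between the groups, and more were lower than higher in the labelled libraries. An adjusted p under 0.05 in limma-trend, fitted to all 13498 tested rows, was reached by 28, with 7 higher and 21 lower. Over all tested rows 66.2% were called, 32.9% as higher and 33.3% as lower. The corresponding shares of the 35 genes were 80%, 20% and 60%. The 35 were chosen with earlier results of these data known, so these shares are not an independent comparison. Libraries of the 2 groups did not overlap for 29 of the 35 genes, and for 68.4% of all tested rows. The 35 had a median log2 fold change of -0.27, beside 0.0025 over all tested rows. With library size as the only scaling, those medians were -0.041 and 0.21, and 10 of the 35 were higher and 14 lower. Dusp4 and Spry4 passed the filter on low values only through control, where they were higher, and Etv4 only through the labelled libraries. Atf3 reached a value of 1 in 3 control and 2 labelled libraries, so it needed control, where it was higher, to pass. The calls of these genes are kept in all counts but are not taken as support. A fold under 1.5 on the log2(value + 1) scale was found for 17 of the 28. Tested against a fold of 1.5, 1 gene was higher (Klf2) and 3 were lower (Dusp1, Spry2 and Spry4), where 7.84% of all tested rows passed.

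**Figure D1:**
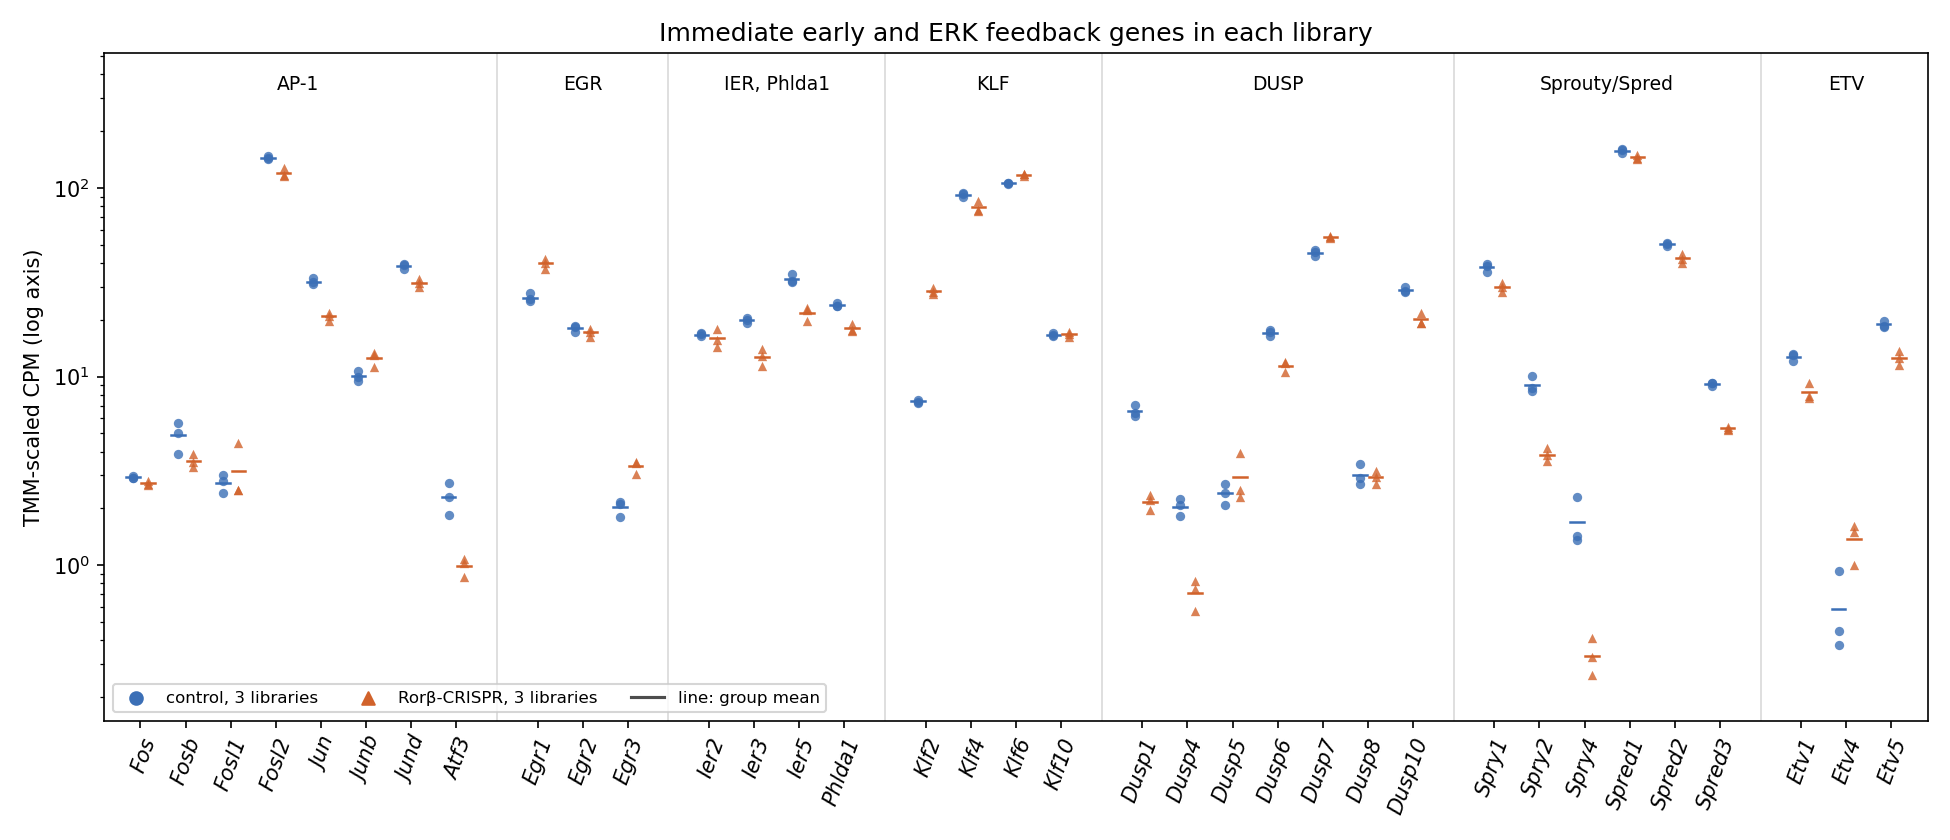
TMM-scaled CPM on a log axis for the 35 genes, by group, in control (circles) and labelled (triangles) libraries, with bars at group means. The mean of Klf2 was 7.396 in control and 28.3 in the other group, and the groups overlapped for Fosl1, Egr2, Ier2, Klf10, Dusp5 and Dusp8.

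Of the 8 AP-1 genes, 5 fell, 1 rose and 2 did not pass the test. Over all tested rows 66.2% were called, 32.9% as higher and 33.3% as lower. The median log2 fold change of the 8 was -0.28. With library size only, Fosb, Fosl2 and Jund lost their calls and Fos turned to 0.091. Jun encodes the prototype JUN protein. Its values were 33.2, 30.9 and 31.6 in control and 19.8, 21.1 and 21.6 in the labelled libraries. Every labelled library lay below every control library (-0.59 on the log2 scale, SE 0.0544, adjusted p = 9.18e-14, ratio of means 0.653), where the log2 scale is that of log2(value + 1) and the test is limma-trend. Junb, whose protein can oppose JUN at some targets, moved the other way. It stood at 9.44, 9.99 and 10.7 in control and at 13.3, 11.2 and 12.997 in the labelled libraries. Here every labelled library lay above control (0.29 on the log2 scale, SE 0.0776, adjusted p = 0.00103). The ratio of Junb to Jun, picked after its values were seen, was 0.284 to 0.339 in control and 0.534 to 0.673 in the labelled libraries. The exact two-sided permutation p was 0.1, the smallest that 3 against 3 libraries allow, and with that choice of pair it is not support.

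Jund, which many cells express without stimulation, fell from 38.7 ± 1.28 to 31.4 ± 1.59 (-0.29 on the log2 scale, SE 0.04899, adjusted p = 8.63e-07). Fosl2, the gene of FRA-2, a FOS family protein known to act in osteoblasts, fell from 145 ± 3.19 to 120.3 ± 5.89 (-0.27 on the log2 scale, SE 0.0325, adjusted p = 5.3e-10). With library size only, neither was called, at -0.072 and -0.041. Fosl2 lies on chromosome 5, with a median of 0.21, and after centring it was at -0.47. Jun and Junb, with library size only, were at -0.38 and 0.50, both still called. Atf3, the gene of a stress-induced partner of JUN proteins, had 1.84, 2.73 and 2.302 in control and 1.08, 0.868 and 1.02 in the labelled libraries. That was 68, 105 and 93 reads against 40, 40 and 45, with no overlap (-0.72 on the log2 scale, SE 0.1196, adjusted p = 7.65e-07). Atf3 needed control, where it was higher, to pass the filter on low values, so this p-value is not taken as support. edgeR on recovered reads put the change of this low gene at -1.22.

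Fos, the prototype immediate early gene, was low in both groups. Its values were 2.98, 2.88 and 2.896 in control and 2.79, 2.69 and 2.68 in the labelled libraries. The groups lay close together without overlap, on 103 to 124 reads per library, and the difference was not called (-0.075 on the log2 scale, SE 0.105, adjusted p = 0.54). Fosb, its close relative, had 3.896, 5.04 and 5.69 in control and 3.87, 3.32 and 3.54 in the labelled libraries (-0.35 on the log2 scale, SE 0.106, adjusted p = 0.00342). Control replicate 1 lay just above the highest labelled library. Without control replicate 3 the log2 fold change was -0.25, with an adjusted p of 0.0565 in limma-trend, and with library size only it was -0.17 and not called. Fosl1, the gene of FRA-1, had 3.003, 2.41 and 2.797 in control and 2.52, 2.496 and 4.42 in the labelled libraries, so the groups overlapped (0.12 on the log2 scale, SE 0.1298, adjusted p = 0.423). Labelled replicate 3 alone stood high, with 195 reads against 93 and 115. Without that library the log2 fold change was -0.089, not called. Fosl1 was called higher, at 0.29, with library size only.

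Per kilobase of annotated exon, mean control levels ran in the order Jund (23.2), Fosl2 (14.96), Jun (10.01), Junb (4.37), Fosl1 (1.35), Fos (1.24), Atf3 (1.06) and Fosb (0.781). In the labelled libraries Junb and Jun came closer, at 5.44 and 6.53 per kilobase. Of the AP-1 sum per kilobase, Jun made up 17.2% to 18.2% in control and 13.4% to 14.5% in the labelled libraries. Junb made up 7.17% to 8.11% and 10.2% to 12.5%, and Jund held the largest share in all 6 libraries. Exons of Fosl1 overlap those of the opposite-strand gene Ccdc85b over 57.2% of their length, and exons of Jund overlap Gm11175 over 52.6%. Gm11175 went from 11.7 ± 0.469 to 9.65 ± 0.736 and Junos, antisense to Jun, from 3.41 ± 0.223 to 2.38 ± 0.278. The strand setting of the counting is not given, so reads of such pairs may not be separable.

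Of the EGR genes, Egr1 and Egr3 rose and Egr2 was not called. EGR proteins bind GC-rich promoters, and Egr1 is among the fastest genes to respond to ERK. Egr1 had 25.7, 25.02 and 27.7 in control and 42.1, 37.2 and 40.3 in the labelled libraries. The groups were well apart (0.59 on the log2 scale, SE 0.05198, adjusted p = 2.35e-14, ratio of means 1.52). Egr3 had 2.11, 2.15 and 1.81 in control and 3.52, 3.04 and 3.47 in the labelled libraries, on 73 to 153 reads (0.52 on the log2 scale, SE 0.108, adjusted p = 3.51e-05). It lies on chromosome 14, whose tested genes had a median log2 fold change of -0.53, and after centring on that median its value was 1.05. Egr2, known for its role in myelination, stood at 17.2, 18.6 and 18.3 in control and 17.95, 16.1 and 17.3 in the labelled libraries. These groups overlapped (-0.069 on the log2 scale, SE 0.0636, adjusted p = 0.345). The ratio of Egr1 to Egr2 was also picked after its values were seen. It was 1.35 to 1.51 in control and 2.304 to 2.35 in the labelled libraries. The exact two-sided permutation p was 0.1, the smallest possible here, and with that choice of pair it is not support. Per kilobase, Egr1 and Egr2 were near each other in control (5.83 and 5.303) and further apart in the labelled libraries (8.89 and 5.04).

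Promoter windows from RefSeq (build GRCm38.p6, 250 bases before to 50 after the start) were found for 26 of the 35 genes, in 32 windows. They were searched on both strands for 4 motifs, and no match of one motif overlapped a match of another in these genes. The CArG box, bound by serum response factor, was in windows of 2 genes (Egr2 and Dusp5) and in 1.63% of all 32851 windows. The cyclic AMP response element TGACGTCA was in windows of 2 genes (Dusp1 and Dusp8) and in 1.79% of windows. The EGR site GCGGGGGCG was in windows of 4 genes (Fosb, Fosl2, Klf2 and Klf4) and in 2.91% of windows. The AP-1 site TGACTCA was in 0 of these windows and in 5.2% of all. Counts of genes and shares of windows are different units and cannot be compared directly. Genes of the 35 without a window were not searched. The sequences shown end before any annotated UTR or coding base, run 5′ to 3′, and have the motif in capitals. They show a match of each of the 3 motifs found. Egr2 and Dusp5 hold CArG boxes, and neither was called. Dusp1 and Dusp8 hold the cyclic AMP response element, and Dusp1 was lower while Dusp8 was not called. Klf2 holds an EGR site and had the highest fold change of the 35, while Fosb, Fosl2 and Klf4 hold the same site and were lower. A match is a string of letters and not a bound site. The windows are Egr2 at chr10:67537619-67537868 (plus strand), Dusp5 at chr19:53528895-53529108 (plus), Dusp1 at chr17:26508520-26508722 (minus), Dusp8 at chr7:142095285-142095534 (minus) and Klf2 at chr8:72318812-72319032 (plus).
Egr2: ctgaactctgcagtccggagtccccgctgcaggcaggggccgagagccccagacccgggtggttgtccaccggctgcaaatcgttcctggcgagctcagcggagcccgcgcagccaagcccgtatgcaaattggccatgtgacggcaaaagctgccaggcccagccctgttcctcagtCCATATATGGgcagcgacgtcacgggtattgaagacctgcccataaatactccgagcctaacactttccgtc
Dusp5: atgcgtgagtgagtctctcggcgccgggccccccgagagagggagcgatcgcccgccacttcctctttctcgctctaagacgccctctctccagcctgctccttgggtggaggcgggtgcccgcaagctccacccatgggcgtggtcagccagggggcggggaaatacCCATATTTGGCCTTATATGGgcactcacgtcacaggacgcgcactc
Dusp1: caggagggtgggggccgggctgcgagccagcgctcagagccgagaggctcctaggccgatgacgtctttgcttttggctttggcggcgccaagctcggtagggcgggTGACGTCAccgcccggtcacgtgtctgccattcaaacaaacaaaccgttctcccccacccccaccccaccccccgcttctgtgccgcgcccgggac
Dusp8: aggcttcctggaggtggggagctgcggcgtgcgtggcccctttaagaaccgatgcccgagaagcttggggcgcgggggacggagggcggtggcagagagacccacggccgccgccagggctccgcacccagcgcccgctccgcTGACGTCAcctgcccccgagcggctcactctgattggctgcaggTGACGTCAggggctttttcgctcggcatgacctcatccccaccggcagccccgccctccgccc
Klf2: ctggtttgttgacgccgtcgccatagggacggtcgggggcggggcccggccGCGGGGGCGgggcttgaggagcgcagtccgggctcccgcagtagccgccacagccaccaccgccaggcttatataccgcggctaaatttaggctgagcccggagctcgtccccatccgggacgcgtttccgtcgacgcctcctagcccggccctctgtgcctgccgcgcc

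Of the KLF genes, Klf2 and Klf6 rose, Klf4 fell and Klf10 was not called. Klf2, best known in endothelium and downstream of the kinase ERK5, had 7.36, 7.55 and 7.28 in control and 29.5, 28.1 and 27.4 in the labelled libraries. The groups were far apart (1.80 on the log2 scale, SE 0.0669, adjusted p = 4e-29, ratio of means 3.83). The endothelial markers Cdh5, Kdr and Emcn had 0 reads in all 6 libraries. Of the same list, Pecam1 had 15, 14 and 7 reads in control and 3, 18 and 18 in the labelled libraries. Tek had 2, 2 and 0 reads in each group. The part of such cells in the Klf2 values was not tested. Klf4, a regulator of pluripotency and differentiation, had 92.4, 93.6 and 90.1 in control and 76.5, 84.8 and 75.6 in the labelled libraries (-0.22 on the log2 scale, SE 0.0377, adjusted p = 1.42e-06). With library size only it was at 0.0037 and not called.

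Klf6 had 106, 106 and 107 in control and 118, 116 and 119 in the labelled libraries (0.15 on the log2 scale, SE 0.0315, adjusted p = 5.79e-05). It lies on chromosome 13, whose tested genes had a median log2 fold change of 0.20, and after centring it was at -0.052 and not called. Its value was 0.37 with library size only. Klf10, first described as a TGF-beta inducible gene, had means of 16.7 ± 0.216 and 16.8 ± 0.454 (0.0066 on the log2 scale, SE 0.0633, adjusted p = 0.934). It lies on chromosome 15, with a median of -0.26, and after centring it was called higher at 0.27 (limma-trend adjusted p = 0.000149). With library size only it was also called higher, at 0.22. Of the KLF sum per kilobase, Klf2 made up 6.38% to 6.49% in control and 20.7% to 22.2% in the labelled libraries, and Klf4 47.9% to 48.7% and 34.9% to 37.9%.

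**Figure D2:**
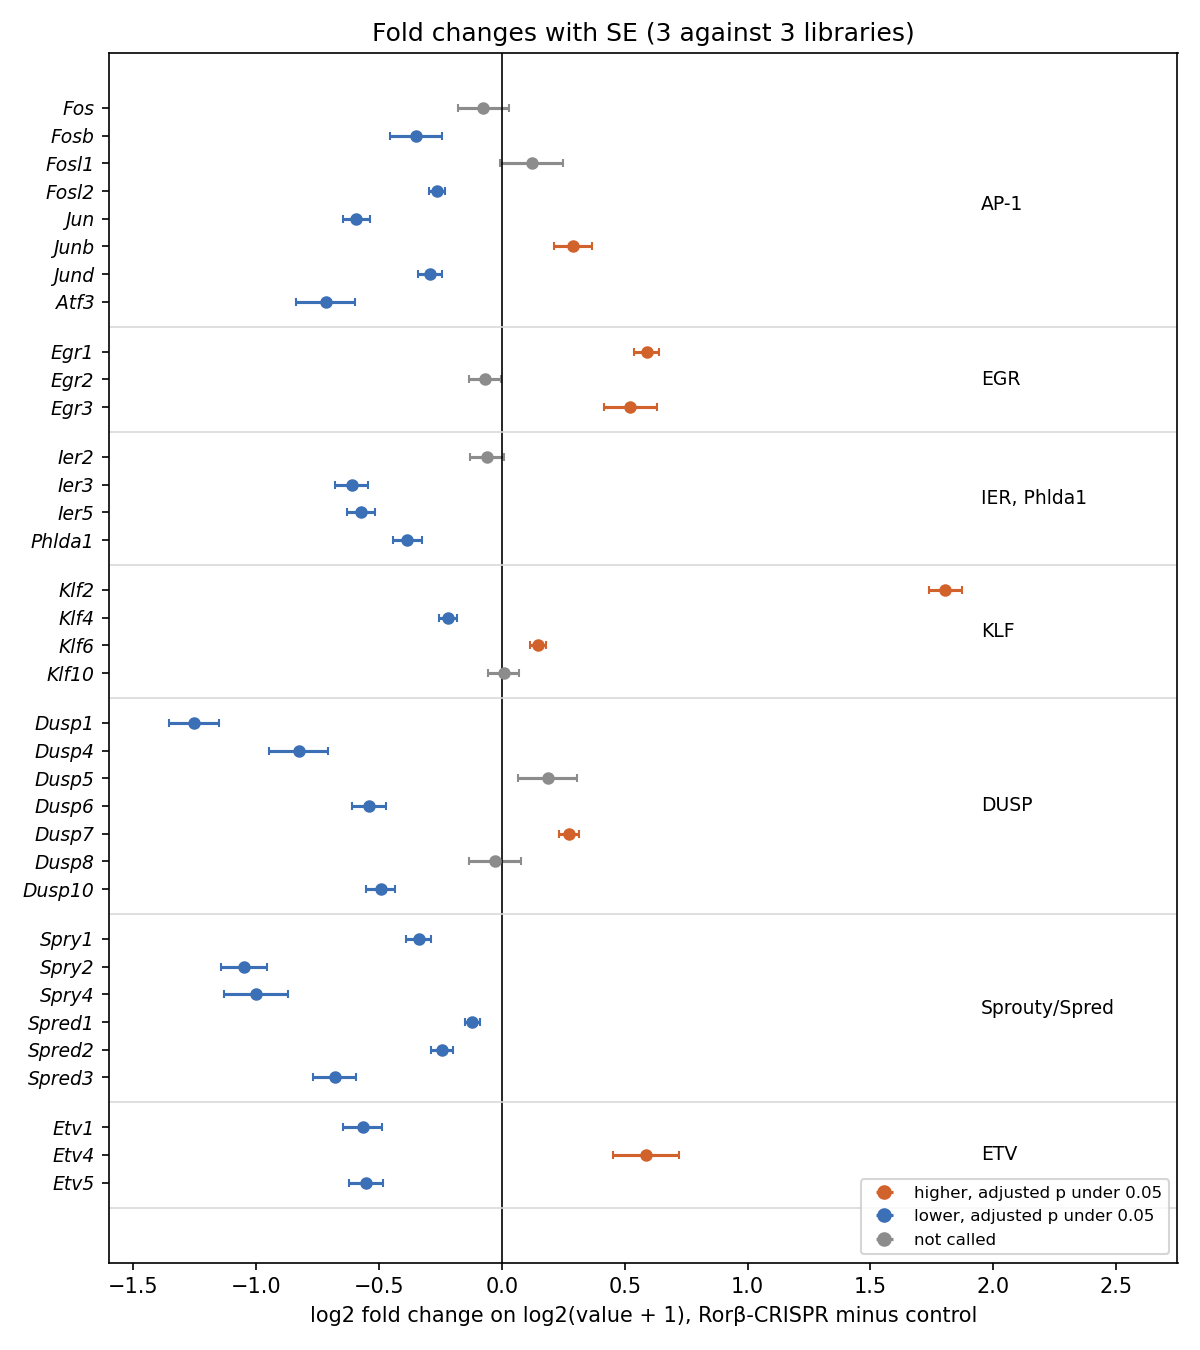
log2 fold change (labelled minus control, on log2(value + 1)) with SE for each of the 35 genes, coloured by call. Of these, 7 were higher, 21 lower and 7 not called, from -1.25 (Dusp1) to 1.80 (Klf2).

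Ier3, Ier5 and Phlda1 fell and Ier2 was not called. Ier3, a gene linked to cell survival, had 19.9, 20.6 and 19.3 in control and 14.03, 11.4 and 12.8 in the labelled libraries (-0.61 on the log2 scale, SE 0.0686, adjusted p = 4.44e-11). Ier5, whose protein acts with heat shock factor 1, had 31.6, 32.1 and 34.9 in control and 23.2, 19.7 and 22.5 in the labelled libraries (-0.57 on the log2 scale, SE 0.0571, adjusted p = 1.56e-12). For both genes the groups did not overlap. Phlda1, whose protein holds a pleckstrin homology-like domain, fell from 23.9 ± 0.484 to 18.1 ± 0.846 (-0.39 on the log2 scale, SE 0.0587, adjusted p = 1.13e-07). Scaled by library size only, Phlda1 was at -0.17, with an adjusted p of 0.048 in limma-trend. Ier3 and Ier5 were then at -0.40 and -0.36, still called. Exons of Phlda1 overlap the opposite-strand Gm28592 over 33.0% of their length, and Gm28592 went from 13.7 ± 0.665 to 10.1 ± 0.283. Ier2 stood at 16.4, 16.95 and 16.7 in control and at 17.98, 14.4 and 15.7 in the labelled libraries, which lay on both sides of control (-0.061 on the log2 scale, SE 0.0685, adjusted p = 0.442).

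Of the 7 dual-specificity phosphatase genes, where 66.2% of all tested rows were called, 4 fell, 1 rose and 2 did not pass the test, and the median log2 fold change was -0.49. Dusp1 encodes the nuclear phosphatase MKP-1, which acts on p38, JNK and ERK. It had 6.196, 6.44 and 7.08 in control and 2.36, 2.21 and 1.951 in the labelled libraries. That was 229 to 286 reads against 86 to 102, with no overlap (-1.25 on the log2 scale, SE 0.101, adjusted p = 1.12e-15, ratio of means 0.331). Dusp4, the related gene of MKP-2, had 1.81, 2.23 and 2.08 in control and 0.569, 0.825 and 0.749 in the labelled libraries. It rests on 67 to 86 reads against 21 to 38 (-0.83 on the log2 scale, SE 0.1197, adjusted p = 3.45e-08, ratio of means 0.3498). Dusp4 passed the filter on low values only through control, where it was higher, so this p-value is not taken as support. For Dusp4 edgeR gave -1.50 (log2).

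Dusp6 and Dusp7 encode cytoplasmic phosphatases that prefer ERK, and they moved apart. Dusp6 had 17.6, 16.4 and 17.2 in control and 11.97, 11.8 and 10.5 in the labelled libraries (-0.54 on the log2 scale, SE 0.0698, adjusted p = 2.15e-09). Dusp7 had 46.8, 45.9 and 43.7 in control and 55.7, 55.1 and 54.5 in the labelled libraries (0.27 on the log2 scale, SE 0.04196, adjusted p = 1.46e-07). The ratio of Dusp7 to Dusp6 was picked after its values were seen. It was 2.53 to 2.81 in control and 4.65 to 5.16 in the labelled libraries. The exact two-sided permutation p was 0.1, the smallest possible here, and with that choice of pair it is not support. Dusp6, Dusp7 and Dusp10 were at -0.33, 0.49 and -0.28 with library size only, all still called. Of the DUSP sum per kilobase, Dusp7 made up 39.8% to 42.1% in control and 54.3% to 56.7% in the labelled libraries.

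Dusp10, the gene of MKP-5, which prefers p38 and JNK, fell from 28.7 ± 0.938 to 20.1 ± 1.49 (-0.49 on the log2 scale, SE 0.0573, adjusted p = 1.14e-10). Dusp8, another phosphatase gene of stress-activated kinases, had means of 3.005 ± 0.384 and 2.92 ± 0.236 (-0.028 on the log2 scale, SE 0.107, adjusted p = 0.831). Dusp5, the gene of a nuclear phosphatase selective for ERK, had 2.71, 2.08 and 2.43 in control and 2.52, 2.301 and 3.95 in the labelled libraries (0.19 on the log2 scale, SE 0.122, adjusted p = 0.178). Its exons overlap an opposite-strand transcript over 22.1% of their length. As with Fosl1, labelled replicate 3 alone stood high, with 174 reads against 93 and 106. Without that library the log2 fold change of Dusp5 was 0.0063, not called. Without labelled replicate 2, Dusp5 was called higher at 0.30 (limma-trend adjusted p = 0.0417), and with library size only at 0.35.

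**Figure D3:**
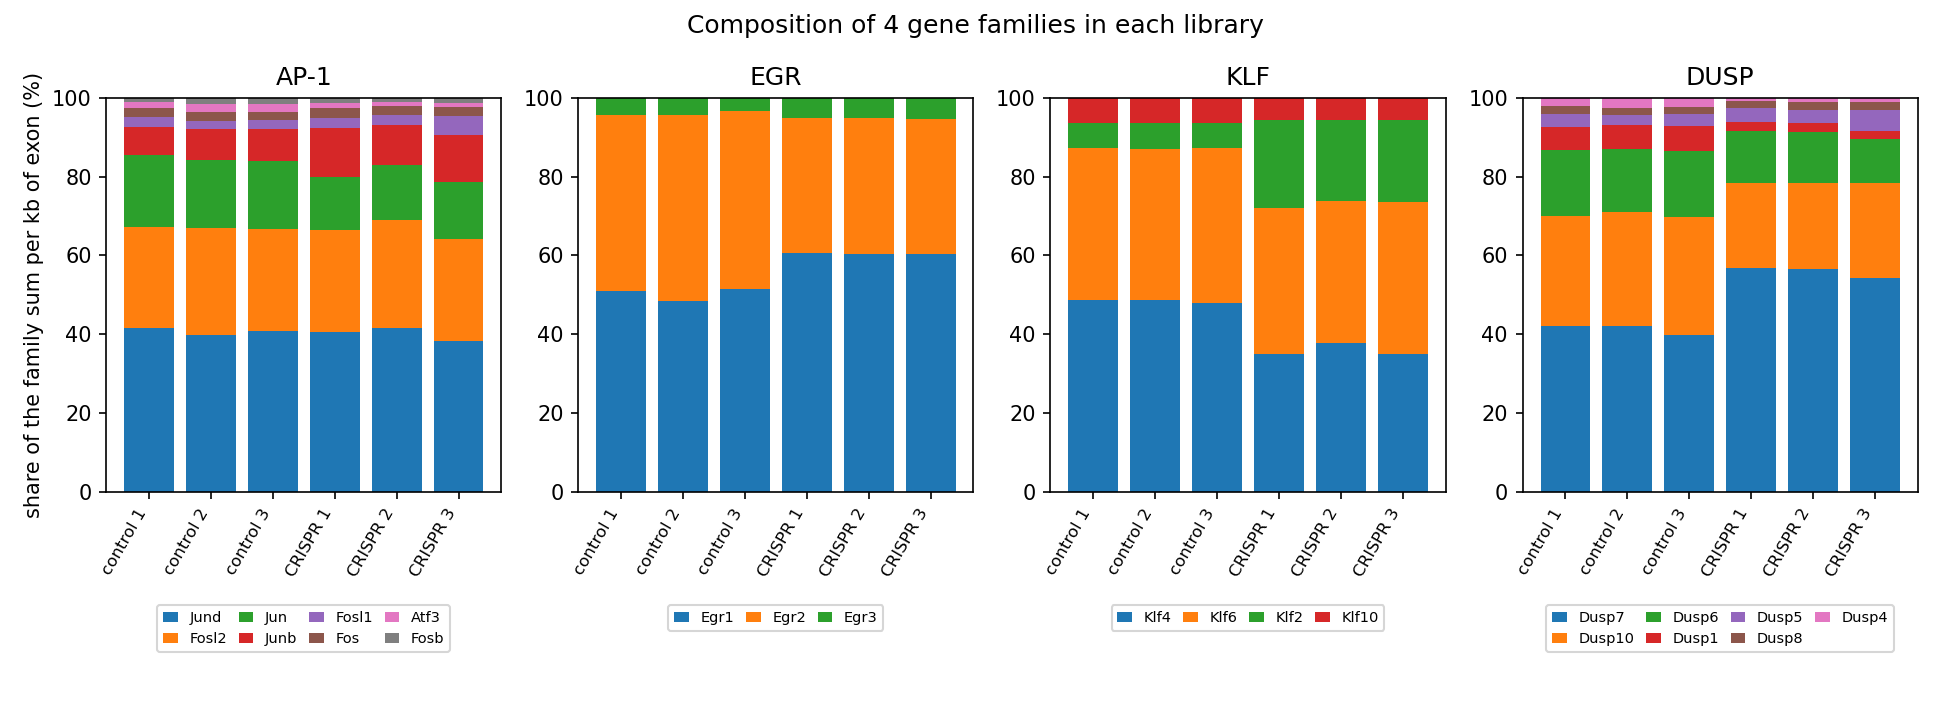
Share of each gene in its family's sum per kilobase of exon (%), stacked, in 3 control and 3 labelled libraries (CRISPR 1 to 3), for AP-1, EGR, KLF and dual-specificity phosphatases. Egr1, Klf2, Junb and Dusp7 took larger shares in each labelled library than in any control library.

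All 6 Sprouty and Spred genes fell, where 33.3% of all tested rows were called lower. Their median log2 fold change was -0.51. With library size only, Spred1 turned to 0.10, and Spry1, Spred1 and Spred2 were not called. Spry2 encodes a well studied inhibitor of receptor tyrosine kinase signalling. It had 10.1, 8.72 and 8.39 in control and 3.82, 3.56 and 4.196 in the labelled libraries. The lowest control library held more than any labelled one (-1.05 on the log2 scale, SE 0.0938, adjusted p = 3.81e-14, ratio of means 0.426). Spry2 lies on chromosome 14, and after centring its log2 fold change was -0.52, still called. Spry4 had 1.35, 1.43 and 2.302 in control and 0.325, 0.2604 and 0.408 in the labelled libraries. These are 50, 55 and 93 reads against 12, 12 and 18 (-1.001 on the log2 scale, SE 0.1303, adjusted p = 2.64e-09, ratio of means 0.196). Spry4 passed the filter on low values only through control, where it was higher, so this p-value is not taken as support. The log2(value + 1) scale understates that change, which edgeR's quasi-likelihood test on recovered reads put at -2.35.

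Spry1 fell from 37.9 ± 1.82 to 29.8 ± 1.52 (-0.34 on the log2 scale, SE 0.0503, adjusted p = 6.66e-08). Its exons overlap the opposite-strand Gm42922 over 24.4% of their length. Spred proteins suppress the activation of RAF by RAS. Spred3 had 9.23, 9.27 and 8.86 in control and 5.42, 5.27 and 5.24 in the labelled libraries, with little spread in either group (-0.68 on the log2 scale, SE 0.0864, adjusted p = 1.36e-09). Spred2 fell from 50.3 ± 1.096 to 42.3 ± 2.25 (-0.24 on the log2 scale, SE 0.0443, adjusted p = 3.75e-06). Spred1, whose protein recruits neurofibromin, had 154, 159 and 161 in control and 144, 149 and 143 in the labelled libraries (-0.12 on the log2 scale, SE 0.02996, adjusted p = 0.000449). In the authors' deposited table Spred1 has a q of 0.0535. Per kilobase, Spred1 was the highest of the 6 in both groups (23.3 and 21.4) and Spry4 the lowest (0.356 and 0.0697).

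Of the ETV genes, Etv1 and Etv5 fell and Etv4 rose. Etv5 had 18.6, 18.4 and 19.8 in control and 13.6, 11.5 and 12.6 in the labelled libraries (-0.55 on the log2 scale, SE 0.0682, adjusted p = 6.15e-10, ratio of means 0.665). Etv1 had 13.1, 12.1 and 13.1 in control and 9.26, 7.73 and 7.92 in the labelled libraries (-0.57 on the log2 scale, SE 0.0795, adjusted p = 1.65e-08, ratio of means 0.651). In both genes the groups were apart. Etv4 was scarce, with 0.379, 0.935 and 0.445 in control and 1.002, 1.498 and 1.61 in the labelled libraries. On 14, 36 and 18 reads against 37, 69 and 71, the groups did not overlap, though control replicate 2 came close (0.59 on the log2 scale, SE 0.133, adjusted p = 0.000143). Etv4 passed the filter on low values only through the labelled libraries, where it was higher, so this p-value is not taken as support. For Etv4 edgeR gave 1.24 (log2), and with library size only Etv1 and Etv5 were at -0.36 and -0.34, still called. The ratio of Etv4 to Etv5 was picked after its values were seen. It was 0.0204 to 0.0509 in control and 0.0736 to 0.1299 in the labelled libraries. The exact two-sided permutation p was 0.1, the smallest possible here, and with that choice of pair it is not support.

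The spread between replicates was set against the 400 tested genes nearest in mean. The SD of log2(value + 1) within groups had a median percentile of 61.9 over the 35 genes. Fosl1 lay at percentile 98.8 and Dusp5 at 95.5, the genes in which labelled replicate 3 stood high. Klf4, Etv4 and Ier5 were also above the 90th. Fos had the lowest percentile of the 35, at 0, and Spred3, Klf10 and Klf6 were at 0.249, 2.24 and 2.99. Among labelled libraries, replicate 1 was the highest for 18 of the 35 genes and replicate 2 the lowest for 18. Control replicate 1, which had the largest share of ribosomal RNA reads, was the lowest control library for 16.

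**Figure D4:**
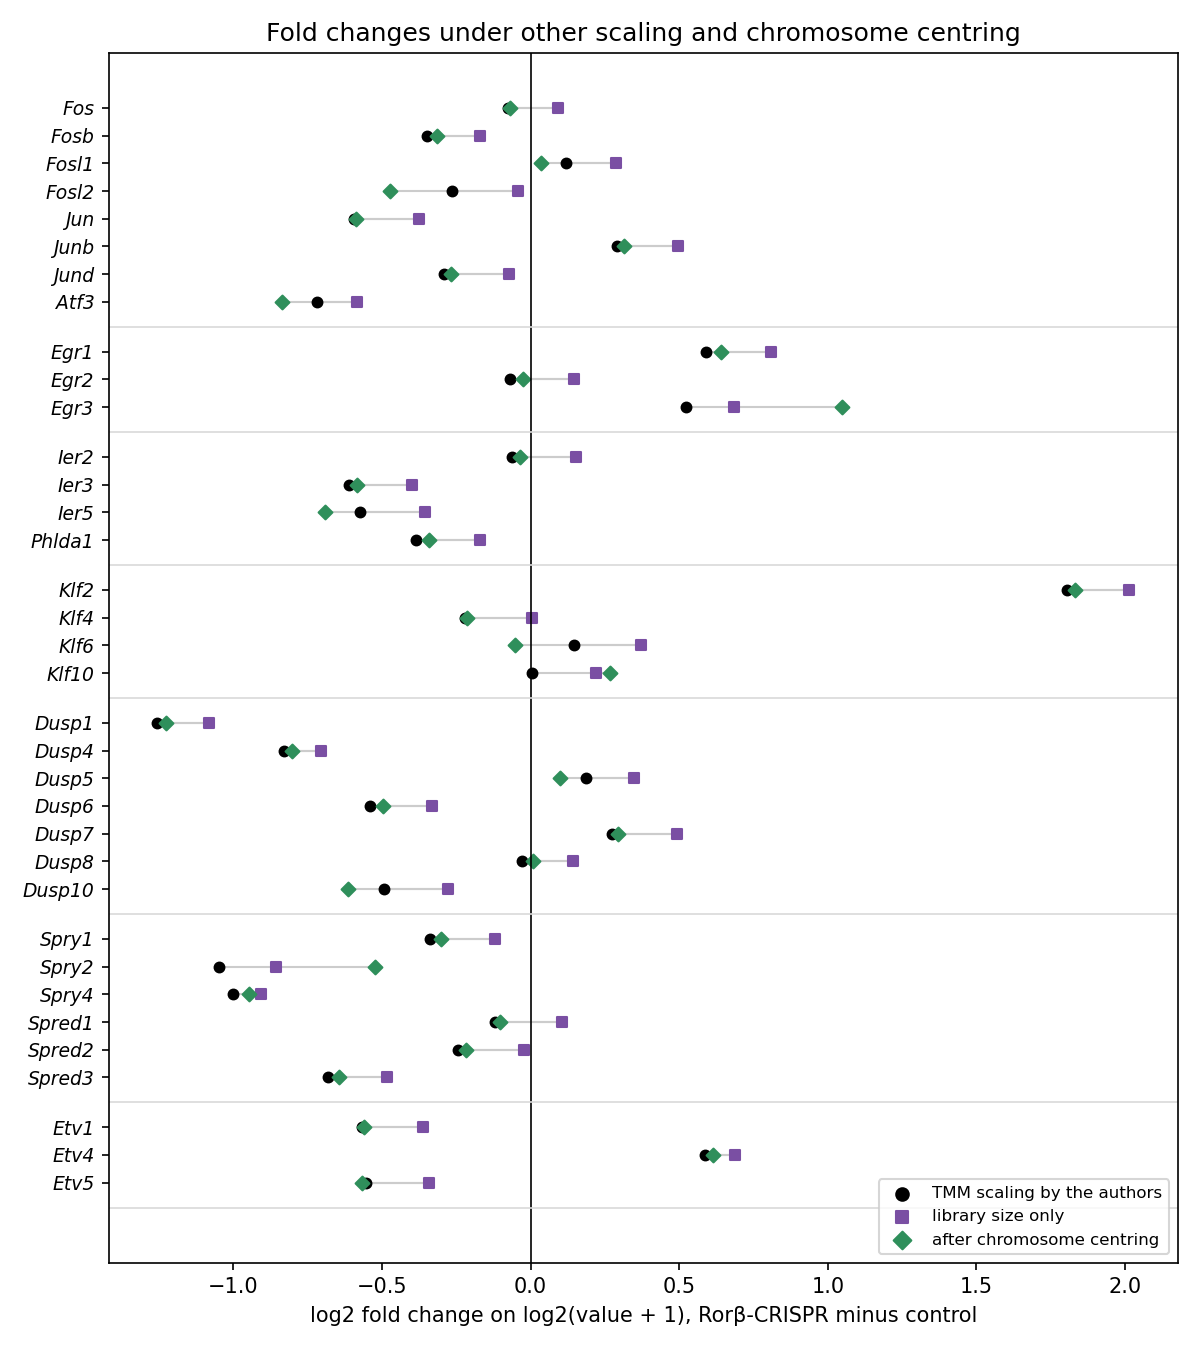
log2 fold change of each of the 35 genes with the authors' TMM scaling (circles), with library size only (squares) and after chromosome centring (diamonds). Squares lie to the right of circles, with the median of all tested genes at 0.21, and centring moved Egr3 to 1.05 and Spry2 to -0.52.

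Lists of other genes of the pathway are given beside the 66.2% of all tested rows that were called, 32.9% as higher and 33.3% as lower, and shares near these say nothing particular to a list. Of 37 tested further immediate early genes, 9 were higher and 22 lower in the labelled libraries, with a median log2 fold change of -0.27. Myc, the growth regulator, rose from 67.6 ± 0.847 to 191 ± 3.96, while Socs3, a feedback inhibitor of cytokine signalling, fell from 49.5 ± 0.591 to 23.7 ± 0.534. Gadd45a, a stress response gene, fell from 9.05 ± 0.594 to 1.78 ± 0.336, and Bhlhe40, the gene of a repressor, fell from 74.8 ± 1.17 to 48.6 ± 1.26. Of 30 genes of the RAS to ERK cascade, 14 were higher and 11 lower, with a median of 0.016. Shc1, the gene of a receptor adaptor, fell from 166 ± 6.87 to 96.4 ± 2.54, and Map2k1, the MEK1 gene, from 78.6 ± 1.74 to 52.8 ± 1.46. The ERK target kinase gene Rps6ka3, on chromosome X with its median of 0.65, rose from 29.1 ± 0.843 to 53.4 ± 2.37, and Rps6ka2 fell from 36.6 ± 1.01 to 22.2 ± 1.099. RNA levels do not give the activity of the kinases in this cascade.

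At the receptor level, 4 of 11 EGF family genes were tested, with 2 higher and 1 lower. Egfr, the epidermal growth factor receptor gene, fell from 74.95 ± 4.01 to 24.8 ± 1.09 (-1.56 on the log2 scale, SE 0.0462, adjusted p = 2.57e-33). The receptor gene Erbb2 rose from 47.2 ± 0.492 to 56.7 ± 1.36, and the ligand gene Nrg1 from 1.951 ± 0.4402 to 3.03 ± 0.344. Of 18 transcription factors that act upstream of immediate early promoters, 5 were higher and 7 lower, a share called near the 66.2% of all tested rows. Ets1 fell from 34.9 ± 1.23 to 14.3 ± 0.933 and Mef2a from 194 ± 4.62 to 139.7 ± 4.004. Elk3, a partner of serum response factor, fell from 62.03 ± 2.51 to 46.4 ± 0.888, and Mkl1, the gene of an actin-regulated cofactor of that factor, from 86.9 ± 2.79 to 61.9 ± 3.53. Of 7 tested AP-1 partners, 4 were lower and 0 higher. Maf fell from 124 ± 6.87 to 59.2 ± 0.881 and Jdp2, the gene of an AP-1 repressor, from 30.3 ± 0.7197 to 19.4 ± 1.14. Atf4 and Atf5 fell as well, with log2 fold changes of -0.47 and -0.32.

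The lists that follow stand beside the same 66.2% of all tested rows called. Of 8 tested further DUSP genes, Dusp12 was higher (log2 fold change 0.34), and 2 were lower. Dusp14 fell from 4.92 ± 0.3504 to 1.86 ± 0.191 and Dusp3, the gene of a phosphatase of ERK and JNK, from 8.35 ± 0.557 to 4.28 ± 0.0242. Of 6 tested further KLF genes, Klf16 was higher (log2 fold change 0.40), and Klf9 and Klf13 were lower (-0.37 and -0.19). In the JNK and p38 cascades, 4 of 13 were higher and 3 lower. Map3k5, the ASK1 gene, was at -0.99, Mapk8 on chromosome 14 at -0.43, Mapk9 at 0.29 and Mapkapk3 at 0.38 (log2 fold changes). Of 7 tested heat shock genes, 4 were higher and 3 lower. Hspd1 and Hspe1, a mitochondrial chaperone pair, were at 0.87 and 0.59, and Bag3 and Dnajb4 at -0.43 and -0.53.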

How the data were processed

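RNA was sequenced from 3 control and 3 Rorβ-CRISPR (KO) libraries of MC3T3-E1 cells. Per the submitters' processing notes, TopHat2 2.0.6 and HTSeq were used with build mm9. No annotation, strand setting or test of the authors is named in the labels. The authors deposited a signal per library, which the file headers call CPM after TMM scaling, with median counts, a fold (ratio), a p-value and a q-value. Whole reads came out for 100% of values within 0.01, and their group medians matched the deposited counts in all 43346 rows.

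Rows of at least 1 in at least 3 libraries were tested with limma-trend (robust) on log2(value + 1), adjusted by Benjamini and Hochberg over all of them, with no covariate. The procedure was also run on simulated reads with a fixed spread for all genes and few changed genes. These data are unlike that, so the run does not measure the error rate here. Fold changes on this scale understate changes of low genes. Levels per kilobase use exon unions of GENCODE M21. Chromosome centring subtracts the median log2 fold change of a gene's chromosome (RefSeq GRCm38.p6, by symbol). Replicates differed by more than counting noise (chi-square per gene from 5.05 to 65.5). That mean includes the rows of ribosomal RNA reads and uses raw read totals, so it does not give the spread of a typical gene.

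The 35 genes and all lists were chosen with earlier results of these data known. All 35 are named; lists give up to 4 called genes of smallest adjusted p. Endothelial and adipocyte lists had 0 tested members, macrophage 2 (1 lower), skeletal muscle 1 (lower), chondrocyte 3 (1 higher, 2 lower) and neuron 2 (1 higher, 1 lower). The 12 osteoblast markers had 5 higher and 6 lower.

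The software was limma 3.58.1, DESeq2 1.42.0 and edgeR 4.0.16 in R 4.3.3, with pandas 2.3.3 and matplotlib 3.10.9 in Python 3.11.15.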

Additional observations from a re-analysis of the deposited data

How the results depend on the processing

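Of the 35 genes, 7 were higher and 21 lower with pseudocounts of 0.1 and 0.5, no filter, edgeR, DESeq2, limma-voom, TMM without 3 ribosomal rows, chromosome centring, the replicate block and an adjusted p of 0.01. DESeq2 size factors left 34 genes tested, 6 higher and 21 lower. Leaving out single libraries gave 7 to 8 higher and 20 to 21 lower, and 4154 to 4286 higher and 4250 to 4321 lower over all tested rows. With library size only, 7291 tested rows were higher and 1975 lower. Against a fold of 1.5, 413 were higher and 645 lower, and 1 and 3 of the 35. With library size only the direction turned for Fos (0.091), Egr2 (0.14), Ier2 (0.15), Klf4 (0.0037), Dusp8 (0.14) and Spred1 (0.10). Chromosome centring turned Klf6 (-0.052) and Dusp8 (0.0072). Without single libraries the log2 fold change changed sign in Fosl1 (from -0.089 to 0.23), Ier2 (from -0.14 to 0.0078), Klf10 (from -0.0084 to 0.027) and Dusp8 (from -0.083 to 0.048), with 0 of these called. The cause was not tested. No label says that replicate numbers share a source, and deviations of same-numbered libraries correlated at -0.056, 0.1674, 0.1273. With the replicate block, 4502 tested rows were higher and 4551 lower. Low reads limit Spry4, Etv4 and Dusp4.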
